A study of Mus musculus with 16 samples.

Results

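The muscle splicing regulators are 10 RNA-binding proteins that choose between alternative exons in heart and skeletal muscle: Rbm20, Rbm24, Rbfox1, Rbfox2, Mbnl1, Mbnl2, Celf1, Celf2, Qk and Ptbp1. The list was set by gene symbol, and each symbol was matched to its Ensembl ID in the total RNA table. All 10 were found among its 39043 entries, and all 10 passed the filter on low counts that left 20254 entries to test, Rbm24 and Rbfox1 through their levels in iCMs and aCMs alone. The study asked how far cardiac stem cells turn into cardiomyocytes in culture, and it sequenced total RNA and small RNA of the same kinds of cell. CSCs are cloned cardiac stem cells from adult wild-type C57BL/6 mouse hearts (C57BL/6J in the methods of the study), sorted for c-kit after depletion of CD45+ and CD31+ cells, grown undifferentiated. iCMs are spontaneously beating cardiomyocytes derived from such CSCs through cardiospheres in StemPro medium with BMP-4, Activin A, basic FGF, Wnt11 and Wnt5a, followed by the Wnt inhibitor DKK1. aCMs are cardiomyocytes isolated by enzymatic digestion of adult hearts of the same strain. There were 3 CSC, 3 iCM and 2 aCM libraries in each assay. The CSC and iCM libraries are described as biological replicates of a single clone, so their spread does not cover differences between clones. In the methods of the study, cells of 2 hearts were pooled for each sample of adult cardiomyocytes.

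Splicing regulators of this kind bind short RNA motifs in the introns around an exon and favour or block its use, and muscle carries its own set of them. Rbm20 represses exons of titin and of calcium-handling genes, Rbm24 and Rbfox proteins favour inclusion of many muscle exons, and Mbnl and Celf proteins act against each other on exons that switch around birth. Ptbp1 is a widely expressed repressor of tissue-specific exons that is kept low in mature muscle and neurons. The deposited values are totals per gene, so they give the amount of RNA for each regulator and say nothing on exon use or on isoforms.

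The total RNA libraries held 29868771 to 63238429 counts in CSCs, 13417384 to 31155237 in iCMs, and 11114519 and 14589730 in aCMs, and the small RNA libraries held 4089474 to 9776644. Levels are CPM, counts brought to a common library size after TMM scaling, which sets each library against the others and discounts a few very abundant RNAs. They are not divided by gene length, so levels are compared between cells and not between genes. A gene was called changed where the adjusted p from the quasi-likelihood test of edgeR was under 0.05 and the fold was at least 2.5. The p-values measure the spread between these libraries only. The summed level of 7 cardiomyocyte markers was 50.5 to 118 CPM in CSCs, 14000 to 21400 in iCMs and 156000 to 187000 in aCMs, in the order the labels give. Markers of other cells moved across the same groups. The summed level of 6 endothelial markers was 2.02 to 3.23 CPM in CSCs, 1190 to 1420 in iCMs and 979 to 1250 in aCMs. For 7 leukocyte markers the sums were 4.70 to 10.3, 113 to 214 and 86.4 to 178 CPM, for 4 smooth muscle markers 26.0 to 51.1, 364 to 759 and 311 to 398 CPM, for 7 fibroblast markers 6110 to 13100, 4380 to 4590 and 341 to 585 CPM, and for 6 neuronal markers 0.727 to 1.34, 24.3 to 27.6 and 14.7 to 22.7 CPM. The fibroblast sum in CSCs was mostly Col1a1 and Col3a1, which were lower in iCMs. Of the 7 fibroblast markers, 4 were called higher and 2 lower in iCMs vs CSCs, against 22.0% and 7.16% of all genes tested. Their median log2 fold change was 2.62, so this sum does not give the direction of most of them. The sum of 5 skeletal muscle markers reached 286 CPM in aCMs 1 and 14.5 in aCMs 2, and stayed at or below 5.97 in all other libraries. No marker of any list was at 0 in every library of a group, and the part of these other cells in the results was not tested. In such bulk samples, fewer cells of a type and less RNA per cell cannot be told apart. The Y-linked gene Eif2s3y was at 0.106 to 0.175 CPM in CSCs, 29.6 to 33.7 in iCMs, and 0.263 and 84.8 in the aCM libraries, so the sequenced CSCs and iCMs differ at a sex-linked gene although both are described as coming from 1 clone. This difference and the differentiation cannot be told apart in comparisons of iCMs with CSCs.

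Rbm20, Rbm24 and Rbfox1 rose from CSCs to iCMs and were highest in aCMs. Ptbp1 was called lower in aCMs than in both other groups. Rbfox2, Mbnl1, Mbnl2 and Celf1 passed no call in any comparison. In iCMs vs CSCs, 3 of the 10 members were called higher, against 22.0% of all genes tested, and 0 lower, against 7.16%. In iCMs vs aCMs, 1 member was called higher, against 19.6% of all genes, and 3 lower, against 15.3%. In aCMs vs CSCs, 5 members were called higher, against 24.2% of all genes, and 1 lower, against 20.4%. With only 10 members these counts are too few to set against the shares over all genes, and the results are those of the single genes. DESeq2 gave the same numbers of members called in each direction, and 6 members had an unadjusted p under 0.05 in iCMs vs CSCs. The median log2 fold change of the members was 0.61 in iCMs vs CSCs, -0.42 in iCMs vs aCMs and 1.16 in aCMs vs CSCs, beside -0.02, 0.19 and -0.10 over all genes tested.

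**Figure D1:**
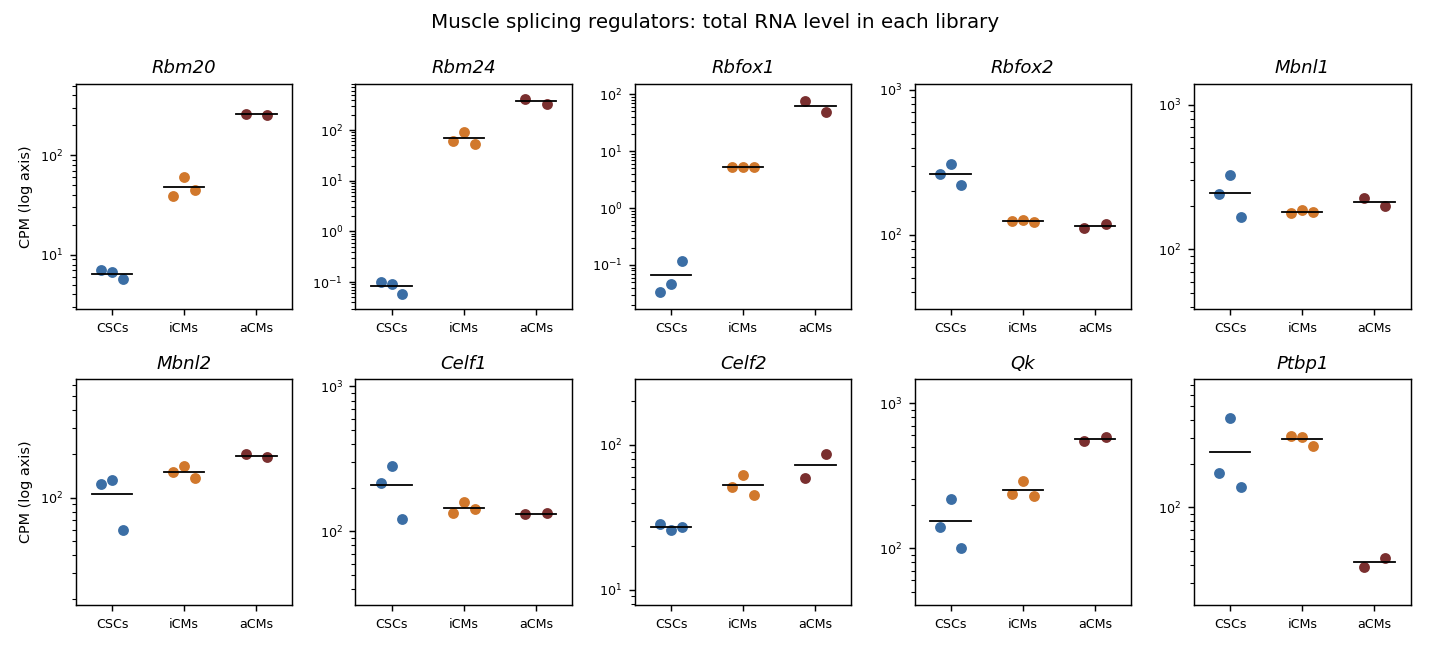
Level of each of the 10 regulators in each total RNA library, in CPM after TMM scaling on a log axis (each panel has its own range). Points are libraries (3 CSCs, 3 iCMs, 2 aCMs) and lines are group means. Rbm20, Rbm24 and Rbfox1 step up from CSCs to iCMs and again to aCMs without overlap, and Ptbp1 lies at 38.9 and 44.5 CPM in aCMs, under all other libraries.

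Rbm20, on chr19 (53660989 to 53867083 in GRCm38.p6, the RefSeq release of the mm10 build of the files), encodes the repressor of titin exons whose mutation causes dilated cardiomyopathy in people. Its level was 6.99, 6.74 and 5.70 CPM in the CSC libraries, 38.8, 60.9 and 44.7 CPM in the iCM libraries, and 263 and 255 CPM in the aCM libraries. Every iCM library lay above every CSC library and below both aCM libraries. The log2 fold change was 2.89 (SE 0.21, edgeR adjusted p 2.92e-06) in iCMs vs CSCs and -2.43 (SE 0.21, edgeR adjusted p 1.8e-05) in iCMs vs aCMs. CSCs held 195 to 445 counts of Rbm20 per library, so it was counted in every CSC library.

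Rbm24, on chr13 (46418102 to 46431099), encodes a protein needed for sarcomere assembly and for inclusion of muscle exons in mouse heart. It was at 0.1004, 0.0909 and 0.0585 CPM in CSCs, which is 6, 6 and 2 counts. The iCM libraries held 62.4, 92.6 and 53.4 CPM and the aCM libraries 415 and 322 CPM. The 3 groups were fully separated, with CSCs close to the limit of detection. Over all counts of a group the level was 811.7-fold higher in iCMs than in CSCs (95% exact binomial interval 483.4 to 1485.6, for counting error only) and 4126.7-fold higher in aCMs (2457.7 to 7552.5). Rbm24 was called in both comparisons with CSCs, but it was kept by the filter through the groups where it was high, so these calls add nothing to the levels. The log2 fold change in iCMs vs aCMs was -2.41 (SE 0.25, edgeR adjusted p 4.3e-05).

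Rbfox1, on chr16 (5884793 to 7412480), encodes the Rbfox protein of brain, heart and skeletal muscle. CSCs held 2, 3 and 4 counts of it, or 0.0335, 0.0455 and 0.117 CPM. The iCM libraries were nearly level with each other at 5.26, 5.27 and 5.32 CPM, and the aCM libraries held 76.8 and 48.6 CPM. The groups did not overlap. Over all counts the level was 93.7-fold higher in iCMs than in CSCs (95% exact binomial interval 48.9 to 206.4) and 1075.0-fold higher in aCMs (564.2 to 2357.2). Its calls against CSCs have the same limit as those of Rbm24. The log2 fold change was -3.57 (SE 0.31, edgeR adjusted p 1.7e-05) in iCMs vs aCMs. The mean iCM level was 8.4% of the mean aCM level for Rbfox1, 18.6% for Rbm20 and 18.9% for Rbm24. For the summed cardiomyocyte markers, of which Myh6 was the largest part, the same share was 10.1%. Single markers differed, with log2 fold changes in iCMs vs aCMs from -4.49 to -2.34. That range holds the values of all of these regulators.

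Rbfox2, on chr15 (77078990 to 77308434), is the broadly expressed relative of Rbfox1 and binds the same motif. Its level was 261, 306 and 221 CPM in CSCs, 124.4, 126 and 123.5 CPM in iCMs, and 111 and 118 CPM in aCMs. All CSC libraries lay above all others, and the difference stayed under the fold of 2.5. The log2 fold change was -1.08 (SE 0.17, edgeR adjusted p 5.29e-04) in iCMs vs CSCs and -1.20 (SE 0.19, edgeR adjusted p 3.92e-04) in aCMs vs CSCs. With libraries scaled by their totals alone the latter was -1.85, and with no filter on low counts -1.39, and both were then called. Between iCMs and aCMs the log2 difference of 0.12 (SE 0.18) was smaller than its error.

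Mbnl1 and Mbnl2 encode muscleblind proteins, which promote the adult exon choice in muscle and are trapped by the repeat RNA of myotonic dystrophy. Mbnl1, on chr3 (60472559 to 60629750), was at 242, 324 and 166 CPM in CSCs, 179, 187 and 182 CPM in iCMs, and 228 and 199 CPM in aCMs. The CSC libraries spanned all the others. Its log2 fold change was -0.42 (SE 0.23, edgeR adjusted p 0.153) in iCMs vs CSCs. In aCMs vs CSCs it was -0.20 (SE 0.26, edgeR adjusted p 0.533), and 0.07 without CSCs 2. Mbnl2, on chr14 (120275652 to 120431698), was at 124.2, 133 and 59.5 CPM in CSCs, 150, 164 and 137 CPM in iCMs, and 200 and 190 CPM in aCMs. The groups were ordered without overlap, but the gaps were small beside the spread of CSCs, where CSCs 3 was lowest. The log2 fold change of Mbnl2 was 0.51 (SE 0.27, edgeR adjusted p 0.139) in iCMs vs CSCs and 0.89 (SE 0.30, edgeR adjusted p 0.0255) in aCMs vs CSCs, under the fold of 2.5. In iCMs vs aCMs the log2 values of Mbnl1 and Mbnl2 were -0.22 (SE 0.25) and -0.37 (SE 0.30), and with library totals alone they turned to 0.49 and 0.34.

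Celf1 and Celf2 encode proteins that favour the fetal exon choice and act against Mbnl proteins on many of the same transcripts. Celf1, on chr2 (90940259 to 91019497), was at 216, 284 and 123 CPM in CSCs, 135, 160 and 143 CPM in iCMs, and 132 and 133 CPM in aCMs. The CSC libraries again spanned the others, and no comparison passed the test, with edgeR adjusted p of 0.137 in iCMs vs CSCs, 0.724 in iCMs vs aCMs and 0.0893 in aCMs vs CSCs. Celf2, also on chr2 (6539694 to 7396341), was at 28.4, 25.7 and 27.0 CPM in CSCs, 51.0, 62.2 and 45.4 CPM in iCMs, and 59.2 and 86.6 CPM in aCMs. CSCs were below all others, and iCMs and aCMs overlapped. Celf2 was called higher in aCMs than in CSCs, with a log2 fold change of 1.43 (SE 0.22, edgeR adjusted p 3.08e-04). That call was lost with library totals alone (0.77), with no filter (1.24) and without aCMs 2 (1.08), because the fold then fell under 2.5. In iCMs vs CSCs its log2 fold change was 0.97 (SE 0.20, edgeR adjusted p 0.00303), also under that fold.

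Qk, on chr17 (10206471 to 10319361), encodes Quaking, a STAR-family protein that binds introns and 3' ends and acts in myelin, vessels and muscle. It was at 141, 219 and 101 CPM in CSCs, 235, 291 and 228 CPM in iCMs, and 553 and 588 CPM in aCMs. The groups did not overlap, and the smallest gap was between CSCs 2 and iCMs 3. Qk rose from CSCs to aCMs, with a log2 fold change of 1.89 (SE 0.29, edgeR adjusted p 3.01e-04), or 1.25 and no longer called with library totals alone. Its log2 fold change was 0.71 (SE 0.26, edgeR adjusted p 0.0466) in iCMs vs CSCs and -1.18 (SE 0.29, edgeR adjusted p 0.00717) in iCMs vs aCMs, each under the fold of 2.5.

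Ptbp1, on chr10 (79854432 to 79864435), encodes the polypyrimidine tract binding protein. It was at 172, 416 and 137 CPM in CSCs, 309, 306 and 267 CPM in iCMs, and 38.9 and 44.5 CPM in aCMs. Both aCM libraries were far below all others, while the iCM libraries lay inside the CSC range. The log2 fold change was 2.82 (SE 0.45, edgeR adjusted p 6.31e-04) in iCMs vs aCMs and -2.54 (SE 0.44, edgeR adjusted p 7.12e-04) in aCMs vs CSCs. Without CSCs 2 the latter was -1.88 and still called. In iCMs vs CSCs the log2 difference was 0.28 (SE 0.35, edgeR adjusted p 0.539), and 0.93 without CSCs 2, with an edgeR adjusted p of 0.00141. CSCs 2, the library highest in Ptbp1, was also highest in the proliferation gene Mki67, at 233 CPM beside 14.4 and 116 CPM in the other CSC libraries, 31.9 to 85.5 CPM in iCMs, and 6.70 and 4.50 CPM in aCMs. It was also highest in the interferon-induced genes Oas2, at 200 CPM beside 24.2 and 24.0 CPM, and Ifit3, at 454 CPM beside 47.3 and 98.4 CPM in the other CSC libraries. The part of either in the Ptbp1 level was not tested.

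**Figure D2:**
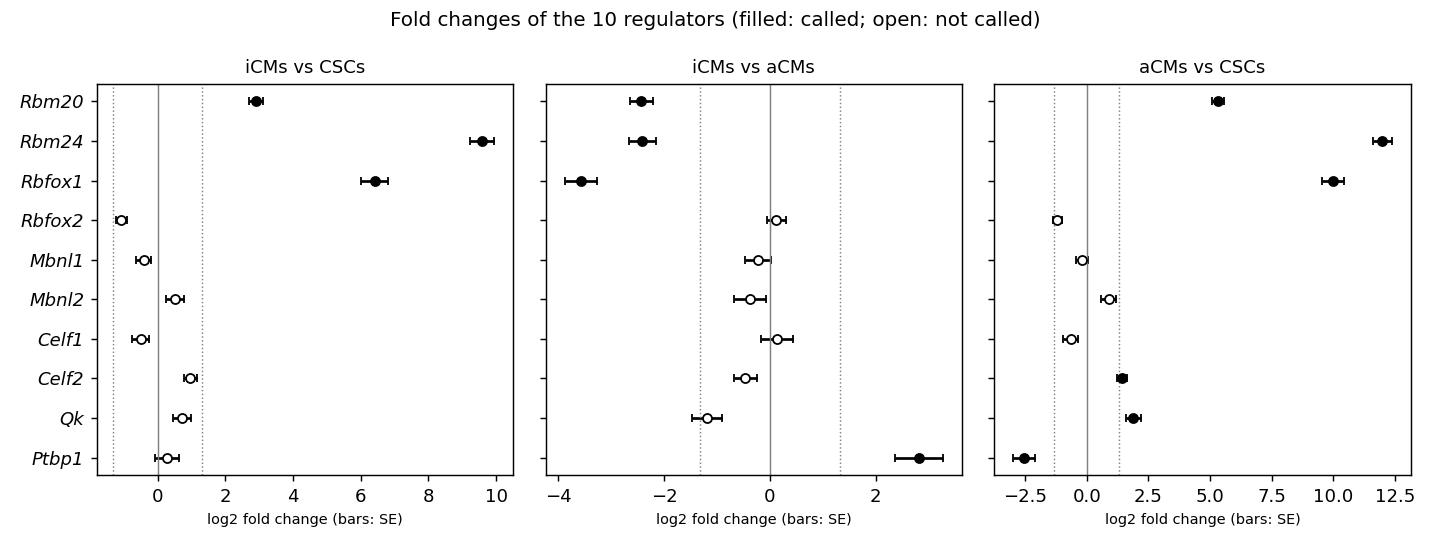
Log2 fold change of each regulator in the 3 comparisons, with bars of 1 SE from the edgeR fit. Filled points were called (adjusted p under 0.05 and at least 2.5-fold, dotted lines), and the horizontal ranges differ between panels. Filled in iCMs vs aCMs are Rbm20, Rbm24 and Rbfox1 on the lower side and Ptbp1 on the higher side at 2.82.

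Groups of libraries that do not overlap were common across the table. In iCMs vs CSCs, 7 of 10 members did not overlap, against 57.9% of all genes tested. In iCMs vs aCMs it was 9 of 10, against 73.8%, with Celf2 the exception. In aCMs vs CSCs it was 8 of 10, against 72.2%, with Mbnl1 and Celf1 the exceptions.

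The balance between paired regulators was taken as the log2 ratio of the CPM of both genes in each library, after adding a prior count of 2. The prior count draws ratios that rest on few counts towards 0, so these differ from the ratios of the CPM given above. A ratio removes the library scaling but not gene length, so only its shift between groups is read. For Celf1 over Celf2 it was 2.92, 3.46 and 2.18 in CSCs, 1.40, 1.36 and 1.65 in iCMs, and 1.16 and 0.62 in aCMs. Each group lay below the one before, and iCMs were lower than CSCs by a log2 difference of -1.38. For Mbnl1 over Mbnl2 it was 0.96, 1.29 and 1.48 in CSCs, 0.25, 0.19 and 0.41 in iCMs, and 0.19 and 0.07 in aCMs. Here CSCs stood apart from both kinds of cardiomyocyte, by -0.96 for iCMs and -1.12 for aCMs, and iCMs and aCMs touched at 0.19. For Rbfox1 over Rbfox2 it was -11.41, -11.47 and -10.27 in CSCs, -4.55, -4.56 and -4.52 in iCMs, and -0.53 and -1.28 in aCMs. The iCM ratios differed from each other by less than those of the other groups, and the shift towards Rbfox1 from CSCs to iCMs was 6.51, with the CSC values resting on 2 to 4 counts of Rbfox1.

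For Ptbp1 over its neuronal relative Ptbp2 it was 1.81, 2.42 and 1.37 in CSCs, 2.42, 2.23 and 2.36 in iCMs, and 0.31 and 0.64 in aCMs, so only aCMs stood apart. For Rbm20 over Rbm24 it was 5.44, 5.47 and 5.58 in CSCs, -0.68, -0.61 and -0.26 in iCMs, and -0.66 and -0.34 in aCMs. The CSC values rest on 6, 6 and 2 counts of Rbm24, so their size and their closeness depend on the prior count. The iCM ratios lay around those of aCMs, with a difference of -0.02, although both genes were lower in iCMs. Of the 15 comparisons of these 5 ratios, 12 had a 2-sided exact permutation p of 0.1, the smallest that 3 against 3 or 3 against 2 libraries allow (0.125 after Benjamini-Hochberg adjustment over the 15), and the others had 0.2, 0.4 and 0.9. This test could therefore not reach 0.05 for a single ratio.

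**Figure D3:**
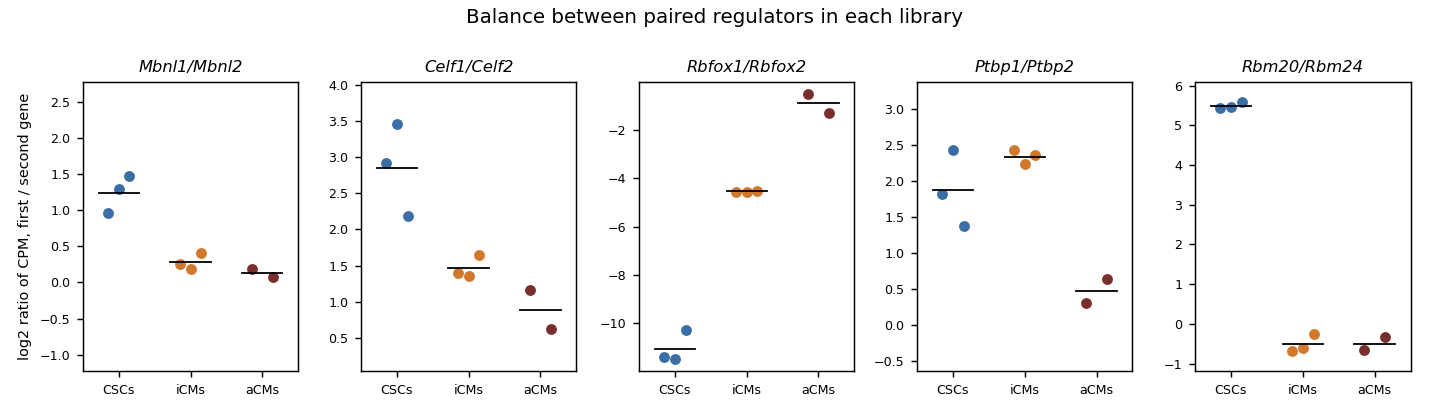
Log2 ratio of the CPM of paired regulators in each library, with a prior count of 2 and lines at group means. The vertical ranges differ between panels and the zero has no meaning, since levels are not per length. The Rbm20 to Rbm24 ratio is 5.44 to 5.58 in CSCs and between -0.68 and -0.26 in all iCM and aCM libraries. The CSC values of this ratio rest on 6, 6 and 2 counts of Rbm24.

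Among 9 close paralogs of the members, 3 were called higher and 1 lower in iCMs vs CSCs, against 22.0% and 7.16% of all genes. In iCMs vs aCMs 2 were higher and 1 lower, against 19.6% and 15.3%. In aCMs vs CSCs 1 was higher and 1 lower, against 24.2% and 20.4%. The median log2 fold changes of the paralogs were -0.04, 0.97 and -1.004 in these comparisons. With library totals alone 5 were called higher and 0 lower in iCMs vs aCMs, and 4 lower in aCMs vs CSCs. Without iCMs 1, iCMs 2 or aCMs 1 in turn, 1 was called higher in iCMs vs aCMs, and without CSCs 2, 2 were lower in aCMs vs CSCs. Rbm38, a relative of Rbm24 that acts in cell cycle arrest and muscle differentiation, was at 25.1, 27.6 and 23.1 CPM in CSCs, 55.9, 92.8 and 68.9 CPM in iCMs, and 258 and 251 CPM in aCMs. It followed the order of Rbm24, with log2 fold changes of 1.52 (SE 0.20, edgeR adjusted p 2.16e-04) in iCMs vs CSCs and -1.81 (SE 0.22) in iCMs vs aCMs. Celf4, a Celf protein of neurons, was at 52.4, 46.2 and 45.7 CPM in CSCs, 14.3, 10.1 and 9.44 CPM in iCMs, and 0.263 and 0.575 CPM in aCMs. It ran the opposite way to Celf2 and fell by 2.09 on the log2 scale (SE 0.24, edgeR adjusted p 7.42e-05) from CSCs to iCMs. Mbnl3, the muscleblind protein of immature muscle, was at 2.41, 2.89 and 2.46 CPM in CSCs, 11.8, 12.6 and 6.65 CPM in iCMs, and 2.23 and 5.46 CPM in aCMs. It was highest in iCMs, with a log2 fold change over CSCs of 2.002 (SE 0.39, edgeR adjusted p 0.00223) and over aCMs of 1.42 (SE 0.46, edgeR adjusted p 0.0271).

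The general splicing machinery was read from 3 lists. Over all genes tested, 22.0% were called higher and 7.16% lower in iCMs vs CSCs. The shares were 19.6% and 15.3% in iCMs vs aCMs, and 24.2% and 20.4% in aCMs vs CSCs. Of 12 SR proteins tested, which promote exon use in all cells, 0 were called in iCMs vs CSCs (4 with an unadjusted p under 0.05 and 0 called by DESeq2), and the median log2 fold change was -0.13. In iCMs vs aCMs 0 SR proteins were called, 9 had an edgeR adjusted p under 0.05, and the median was 0.95. In aCMs vs CSCs 2 fell, Srsf9 by 2.16 and Srsf11 by 1.39 on the log2 scale, and the median was -1.05. Of 23 hnRNP proteins, 0 were called in iCMs vs CSCs (6 with an unadjusted p under 0.05 and 0 called by DESeq2), 3 were higher and 0 lower in iCMs vs aCMs, led by Hnrnpll at 2.35 (SE 0.29), and 1 was higher (Hnrnph3, at 1.33) and 6 lower in aCMs vs CSCs. Hnrnph3 lay at the threshold, and its call was lost with library totals alone, with no filter, with only the groups compared, without CSCs 2 and without aCMs 2. Their medians were -0.18, 0.66 and -0.90. Of 29 core spliceosome genes, 2 were called lower in iCMs vs CSCs (Prpf6 and Eftud2, while 16 had an unadjusted p under 0.05), 4 higher and 1 lower in iCMs vs aCMs, and 1 higher and 10 lower in aCMs vs CSCs, with medians of -0.51, 0.33 and -0.995. The 2 calls in iCMs vs CSCs were 1 with DESeq2, its size factors, library totals alone or the replicate block, 0 with a stricter filter, 1 to 4 with a library left out and 13 by adjusted p alone. Prpf19, a ubiquitin ligase of the spliceosome, was the gene called lower in iCMs vs aCMs and the gene called higher in aCMs vs CSCs, at 155, 193 and 129 CPM in CSCs, 116 to 145 CPM in iCMs, and 410 and 417 CPM in aCMs. Its call in aCMs vs CSCs was lost with library totals alone, with no filter, with the replicate block, without CSCs 3 and without aCMs 2. The 2 of 12 SR and 6 of 23 hnRNP proteins called lower in aCMs vs CSCs lie near the share over all genes. The counts with aCMs depended on the scaling. With library totals alone, 9 SR proteins and 12 hnRNP proteins were called higher in iCMs vs aCMs, 10 and 15 were lower in aCMs vs CSCs, and 19 core spliceosome genes were lower in aCMs vs CSCs. Without CSCs 2, 2 hnRNP proteins and 1 SR protein were called lower in aCMs vs CSCs.

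Of 21 other tissue-biased splicing regulators tested, 8 were called higher and 1 lower in iCMs vs CSCs, against 22.0% and 7.16% of all genes. In iCMs vs aCMs 3 were higher and 3 lower, against 19.6% and 15.3%. In aCMs vs CSCs 7 were higher and 5 lower, against 24.2% and 20.4%. The medians were 0.51, 0.17 and 0.42. Hnrnpll is in this list and in the hnRNP list, so its calls count in both. With library totals alone the split in iCMs vs aCMs was 6 higher and 1 lower, and without CSCs 1, 3 were lower in aCMs vs CSCs. Of those called higher against CSCs, Khdrbs3, Srrm4, Rbm47, Elavl3, Elavl4, Esrp1 and Esrp2 held 0 to 21 counts per CSC library. They passed the filter through iCMs or aCMs, so their calls against CSCs add nothing to the levels, and the counts of calls include them. Rbpms, an RNA-binding protein of cardiac and smooth muscle, was at 0.117, 0.470 and 0.409 CPM in CSCs, 151, 189 and 146 CPM in iCMs, and 244 and 245 CPM in aCMs. It was called higher in iCMs than in CSCs (edgeR adjusted p 1.68e-07), and its log2 difference of -0.60 (SE 0.32) between iCMs and aCMs was not called. Khdrbs3, a STAR-family relative of Qk, was at or below 0.0455 CPM in CSCs, at 24.1, 20.8 and 27.1 CPM in iCMs, and at 94.2 and 90.5 CPM in aCMs. Srrm4, known as the switch for neuronal microexons, was at 0.134, 0.182 and 0.292 CPM in CSCs, 1.75, 0.884 and 1.06 CPM in iCMs, and 26.4 and 34.0 CPM in aCMs. It was thus far higher in aCMs than in iCMs, by a log2 difference of -4.59 for iCMs vs aCMs (SE 0.41, edgeR adjusted p 1.9e-05). Rbm47, an epithelial regulator, was at 0.0292 to 0.318 CPM in CSCs, 2.02 to 4.05 CPM in iCMs, and 0.263 and 0.288 CPM in aCMs. Nova1 was the 1 gene called lower in iCMs vs CSCs, with a log2 fold change of -2.32 (SE 0.33, edgeR adjusted p 3.6e-04). Its level was 12.1, 15.1 and 10.9 CPM in CSCs, 3.48, 1.99 and 2.13 CPM in iCMs, and 2.89 and 2.01 CPM in aCMs. The 5 called lower in aCMs vs CSCs were Nova1, Elavl2, Msi1, Tia1 and Hnrnpll.

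Genes whose transcripts Rbm20 acts on were read as gene totals only. Of 17 such genes, 10 were called higher and 0 lower in iCMs vs CSCs, against 22.0% and 7.16% of all genes tested. In iCMs vs aCMs 2 were higher and 11 lower, against 19.6% and 15.3%. In aCMs vs CSCs 13 were higher and 1 lower, against 24.2% and 20.4%. The medians were 3.11, -2.80 and 6.45. The list holds several cardiomyocyte genes, and in these counts a muscle gene and a target of Rbm20 cannot be told apart. Pdlim3, Trdn and Ryr2 held 0 to 19 counts per CSC library. They passed the filter through iCMs and aCMs, so their calls against CSCs add nothing to the levels. Ttn, which encodes titin, was at 1.86, 1.27 and 2.28 CPM in CSCs, 538, 600 and 334 CPM in iCMs, and 8743 and 5796 CPM in aCMs. It rose with Rbm20, by a log2 fold change of 8.10 (SE 0.41, edgeR adjusted p 2.55e-07) in iCMs vs CSCs. Camk2d, which encodes a calcium-dependent kinase with heart-specific exons, was at 153, 101 and 115 CPM in CSCs, 137, 177 and 140 CPM in iCMs, and 343 and 309 CPM in aCMs. Its total overlapped between CSCs and iCMs, with a log2 difference of 0.30 (SE 0.20, edgeR adjusted p 0.238). The exceptions to the direction in iCMs vs aCMs were Pdlim3, at 64.5, 71.1 and 62.6 CPM in iCMs and 12.4 and 14.95 CPM in aCMs, and Rtn4, at 315, 323 and 329 CPM in iCMs and 117 and 102 CPM in aCMs.

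Across the 8 total RNA libraries, the genes with the pattern most like that of each member were found by Pearson's r of log2 CPM over about 10032 genes. The points share their libraries and fall into 3 groups, so r describes the step between groups and carries no p. For Rbm24 they were Actn2 (r = 0.9998), Nebl (0.9996) and Xirp1 (0.9991), which encode Z-disc and intercalated disc proteins. For Rbfox1 they were Myom2 (0.9986), an M-band protein, Fhod3 (0.9981), a formin of the sarcomere, and Gm12338 (0.9974). For Rbm20 they were Retreg1 (0.9969), Clip4 (0.9967) and Lrrc39 (0.9966), of which the last is an M-band protein. For Ptbp1 the nearest was Ripk1 (0.9958), for Rbfox2 Ftsj3 (0.9950) and for Qk 1810013L24Rik (0.9950), and for the other members the highest r lay between 0.9751 and 0.9869.

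Promoter windows are shown for the members furthest apart in iCMs vs aCMs, Rbfox1 on the lower and Ptbp1 on the higher side. They are the 250 bases before the annotated start from RefSeq (GRCm38.p6, plus strand), with E-boxes (CANNTG, the motif of basic helix-loop-helix factors) in capitals. No entry was matched for Rbm20 and Rbfox2. Rbfox1 has a distal start, at chr16:5884543-5884792, and an internal one, at chr16:7069585-7069834, and the Ptbp1 window is chr10:79854182-79854431.
Rbfox1 distal: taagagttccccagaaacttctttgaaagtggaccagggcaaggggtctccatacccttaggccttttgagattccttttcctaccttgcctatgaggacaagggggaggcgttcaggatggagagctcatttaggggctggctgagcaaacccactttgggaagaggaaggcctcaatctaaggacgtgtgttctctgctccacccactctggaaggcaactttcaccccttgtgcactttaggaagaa
Rbfox1 internal: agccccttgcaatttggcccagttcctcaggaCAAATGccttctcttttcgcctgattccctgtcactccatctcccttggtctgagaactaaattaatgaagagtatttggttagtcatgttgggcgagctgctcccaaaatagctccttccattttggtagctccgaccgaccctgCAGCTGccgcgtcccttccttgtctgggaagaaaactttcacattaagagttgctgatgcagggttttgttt
Ptbp1: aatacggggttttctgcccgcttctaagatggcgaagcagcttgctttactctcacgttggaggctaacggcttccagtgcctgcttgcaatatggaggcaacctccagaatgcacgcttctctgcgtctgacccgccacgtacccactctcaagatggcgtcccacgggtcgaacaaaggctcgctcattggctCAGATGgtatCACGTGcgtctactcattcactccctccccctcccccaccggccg
The Ptbp1 window held 57.6% G and C and 17 CpG dinucleotides, and the distal and internal Rbfox1 windows held 51.2% and 48.4% and 2 and 6 CpG, beside a median of 52.4% and 6 CpG over all 32851 windows of that length. An E-box, searched on both strands, was in 66.22% of all windows and in windows of 5 members, so it does not set these apart. No window of a member held a MEF2 site (2.92% of all windows) or an SRF CArG box (1.47%). A match is only a match of letters.

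miRNAs known to lower members or their paralogs were read in the small RNA libraries, where a call needed an edgeR adjusted p under 0.05 and a log2 fold change of at least 0.6. In mouse, miR-23 targets Celf transcripts, miR-30 targets Mbnl transcripts, miR-133 targets Ptbp2 and miR-124 targets Ptbp1. Their mature sequences from RefSeq (GRCm38.p6), with the seed (bases 2 to 8) in capitals, show which share a seed and so pair with the same sites.
miR-23a-3p (chr8:84208563-84208583, plus strand): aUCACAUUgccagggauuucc
miR-30a-5p (chr1:23272274-23272295, plus strand): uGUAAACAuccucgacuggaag
miR-30c-5p (chr1:23291714-23291736, plus strand, and chr4:120769584-120769606, minus strand): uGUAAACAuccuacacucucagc
miR-30e-5p (chr4:120772660-120772681, minus strand): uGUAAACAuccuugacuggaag
miR-133b-3p (chr1:20682834-20682855, plus strand): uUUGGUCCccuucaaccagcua
The 3 miR-30 sequences share the seed GUAAACA and differ in the rest. miR-23b-3p, miR-30b-5p, miR-30d-5p, miR-133a-3p and miR-124-3p were read by name only.

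Of these 10 miRNAs, 9 passed the filter. In iCMs vs CSCs, 6 were called higher, against 38.9% of the 718 miRNAs tested, and 0 lower, against 25.3%. In iCMs vs aCMs, 0 were called higher, against 44.2%, and 4 lower, against 17.8%, while in aCMs vs CSCs 7 were called higher, against 35.4%, and 0 lower, against 33.6%. DESeq2 called 9 lower and 0 higher in iCMs vs aCMs, and 9 higher in aCMs vs CSCs. The medians of the listed miRNAs were 1.19, -0.70 and 1.70, beside 0.26, 1.02 and 0.00 over all miRNAs tested. The muscle miRNAs led. miR-133b-3p was at 2.06, 1.73 and 2.91 CPM in CSCs, 736, 478 and 1420 CPM in iCMs, and 2420 and 4653 CPM in aCMs. The groups did not overlap, and the log2 fold change was 8.59 (SE 0.56, edgeR adjusted p 3.37e-08) in iCMs vs CSCs. miR-133a-3p was at 62.1, 62.1 and 163 CPM in CSCs, 42580, 33020 and 26380 CPM in iCMs, and 366900 and 288300 CPM in aCMs. It was the only listed miRNA still called lower in iCMs than in aCMs with library totals alone, and its log2 value in iCMs vs aCMs was -3.27 (SE 0.40, edgeR adjusted p 1.9e-05). Ptbp2, a known target of miR-133, was read in the separate total RNA libraries of the same groups. It was at 49.0, 77.6 and 53.0 CPM in CSCs, 57.8, 65.3 and 51.8 CPM in iCMs, and 31.3 and 28.5 CPM in aCMs. Its log2 difference was -0.04 (SE 0.21) in iCMs vs CSCs and 0.97 (SE 0.24, edgeR adjusted p 0.00821) in iCMs vs aCMs. In aCMs vs CSCs it was -1.004 (SE 0.24, edgeR adjusted p 0.00493), and each lay under the fold of 2.5.

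miR-30 members with the shared seed rose together from CSCs to iCMs in part. miR-30a-5p was at 19750, 15730 and 17620 CPM in CSCs, 42360, 40200 and 38520 CPM in iCMs, and 47430 and 60310 CPM in aCMs. It rose by a log2 fold change of 1.19 (SE 0.21, edgeR adjusted p 2.58e-04) in iCMs vs CSCs, as did miR-30c-5p by 1.48 (SE 0.30) and miR-30e-5p by 0.99 (SE 0.22). miR-30d-5p was at 20570, 16420 and 17000 CPM in CSCs, 20220, 21740 and 15840 CPM in iCMs, and 26370 and 23410 CPM in aCMs. Its CSC and iCM libraries overlapped, and its log2 difference of 0.10 (SE 0.22) turned to -0.13 with library totals alone. miR-23b-3p was at 556, 576 and 502 CPM in CSCs, 2282, 1515 and 1420 CPM in iCMs, and 2216 and 2286 CPM in aCMs, a rise by a log2 fold change of 1.68 (SE 0.27, edgeR adjusted p 1.45e-04) from CSCs to iCMs. miR-23a-3p was at 1506, 1777 and 1647 CPM in CSCs, 1156, 1312 and 1278 CPM in iCMs, and 1831 and 2335 CPM in aCMs. It was lowest in iCMs, with a log2 value of -0.74 (SE 0.27, edgeR adjusted p 0.0302) in iCMs vs aCMs, which turned to 0.35 with library totals alone. miR-124-3p had 0 CPM in all CSC libraries and at most 1.04 CPM elsewhere, and was not tested. The Mbnl1, Mbnl2 and Celf1 levels given above were called in no comparison beside these miRNAs. Other genes of these families were called in both directions. Celf2 was higher in aCMs vs CSCs (log2 fold change 1.43) and Mbnl3 in iCMs vs CSCs (2.002), while Celf4 was lower in iCMs vs CSCs (-2.09). The part of the miRNAs in these levels was not tested.

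**Figure D4:**
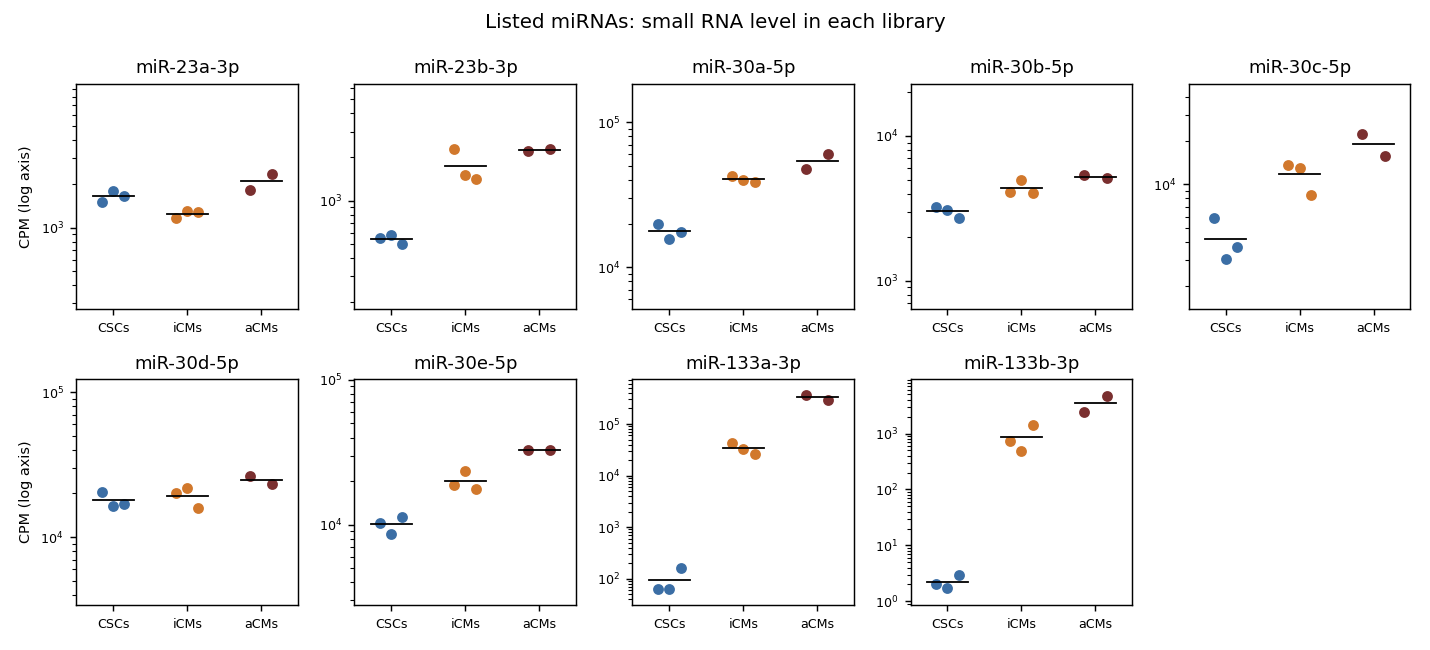
Level of the 9 tested miRNAs in each small RNA library, in CPM after TMM scaling on a log axis (each panel has its own range), with points for libraries and lines for group means. miR-133a-3p and miR-133b-3p separate all 3 groups, and the CSC and iCM points of miR-30d-5p overlap.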

How the data were processed

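The 10 members and all gene and miRNA lists were chosen with earlier results of these data known. For total RNA, the authors depleted ribosomal RNA, aligned paired reads in Strand NGS to mm10 with Ensembl transcripts, and deposited estimated counts per gene in 39043 entries, of which 36308 have a symbol and 956 without an Ensembl ID hold 0.147% of the counts. Of the values, 50.9% were not whole (tolerance 0.001) and were rounded. Small RNA reads went through Cutadapt and iSMART, and the authors deposited raw counts of 1818 mature miRNAs. Their notes name DESeq2 1.28.1 and R 4.0.2. Use of strand in counting is not given in the sources used here, so antisense and overlapping reads cannot be told apart. The study says that libraries were prepared in 2 ways without saying which, so preparation and group cannot be told apart. The name of the total RNA file also mentions RPKM, but its values were taken as counts not divided by length.

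With R 4.3.3, edgeR 4.0.16 (limma 3.58.1) dropped features with low counts, scaled libraries by TMM (factors 0.685 to 1.19 for total RNA and 0.529 to 1.41 for small RNA) and fitted all 8 libraries of an assay with the quasi-likelihood test and Benjamini-Hochberg adjustment over 20254 genes or 718 miRNAs. Intervals cover counting error only. The rule named all members and, of other lists, up to 4 genes a comparison by smallest p, with any whose call opposed most of its list, while Ttn, Camk2d and Ptbp2 were chosen after their values were seen. Rbm47, Elavl3, Elavl4 and Esrp1 were also named outside this rule. The scripts were tested on simulated data. No pair of libraries was a duplicate (at most 0.0453% equal counts in total RNA and 1.29% in small RNA, over features with more than 20 counts). Spearman correlations within groups were at least 0.965, and between groups at most 0.844. Alternatives were DESeq2 1.42.0, other size factors, library totals alone, other filters, only the groups compared, each library left out, the replicate block, and each part of the call rule alone. The qPCR and protein data of the study were not used here.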

Additional observations from a re-analysis of the deposited data

How the results depend on the processing

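Of 450 log2 values of the members in alternatives, 440 kept their direction and side of the threshold, 4 lost the call, 2 gained it and 4 reversed, and for the miRNAs these were 346, 9, 36 and 14 of 405. Library totals alone shifted the median log2 value of all genes by 0.71 in iCMs vs aCMs and -0.66 in aCMs vs CSCs, and of all miRNAs by 1.05 and -1.30, so differences with aCMs are relative to the scaling. The higher share of calls then went from 56.2% to 79.3% and from 54.2% to 36.3% for genes, and from 71.2% to 88.1% and from 51.3% to 30.9% for miRNAs. Under it 6706 genes were higher and 1754 lower in iCMs vs aCMs (Mbnl1 0.49, Mbnl2 0.34, Celf2 0.24), and 6695 were lower in aCMs vs CSCs, with 3 members higher and 2 lower. Under it 60 miRNAs were lower in iCMs vs aCMs, of the listed ones 3 higher and 1 lower (miR-23a 0.35, miR-23b 0.69, miR-30a 0.67, miR-30b 0.82, miR-30c 0.37, miR-30d 0.70, miR-30e 0.37). In aCMs vs CSCs it gave 164 miRNAs higher and 366 lower, of the listed ones 4 and 2 (miR-23a -0.97, miR-30b -0.51, miR-30d -0.83). In iCMs vs CSCs miR-30d was -0.13 with totals and -0.001 with DESeq2 or its size factors. Without a filter 2 members were lower in aCMs vs CSCs, and 2 listed miRNAs in iCMs vs aCMs (miR-30b 0.018). DESeq2, its size factors and the fit of only the groups compared each gave 9 listed miRNAs lower in iCMs vs aCMs, the last with 223 miRNAs lower in all. By adjusted p alone 4440 genes were lower in iCMs vs CSCs, with 5 members higher and 1 lower, and 2 members lower in aCMs vs CSCs.

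With each library left out, 2 to 7 listed miRNAs were lower in iCMs vs aCMs, Mbnl1 in aCMs vs CSCs ranged from -0.40 to 0.07, and the Rbm20 to Rbm24 ratio in iCMs vs aCMs from -0.18 to 0.14. The causes were not tested. CSC and iCM libraries share only a replicate number: same-numbered deviations correlated at 0.034, 0.155 and 0.071 in total RNA and 0.168, 0.040 and 0.203 in small RNA, and CSCs 1 correlated better with iCMs 3 (0.067) than with iCMs 1. With the replicate block 4383 genes were higher and 1312 lower in iCMs vs CSCs, with 3 members higher and 0 lower. Depth limits Rbm24 and Rbfox1 in CSCs, at 14 and 9 counts in all.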
